A study of Mus musculus with 10 samples.

Results

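Immune cell marker genes are transcripts by which white blood cells are told from other cells, and 34 of them were followed through sorted cells of the mouse mammary gland. They were chosen by name, and each was found among the 49671 gene identifiers of the count tables through the GENCODE M21 annotation of the mouse genome GRCm38. All 34 were found. By role they were 8 pan-leukocyte genes, 7 T cell genes, 3 B cell genes, 11 genes of macrophages and monocytes, 3 Fc receptor genes or partners and 2 neutrophil S100 genes. After the low-count filter 30 of the 34 could be tested, and Cd3g, Cd8a, Cd79b and Ms4a1 had too few counts.

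Cells were sorted by flow cytometry into 5 populations with 2 RNA sequencing libraries each. In 3 of them the cells were marked by Tomato, a red fluorescent reporter protein, and came with the treatment label of luminal cell ablation: Tomato basal cells (TBC), Tomato hybrid cells (abbreviated THC) and Tomato luminal cells (abbreviated TLC). Basal cells (BC) and luminal cells (LC), called unmarked here because their labels name no reporter, had no treatment label, and WT stood in the label of replicate 2 of either. Where a marked population is set against BC or LC, the reporter and the ablation differ together. No mouse line, age or number of animals is stated, nor what drives the reporter or the ablation. The labels name neither the antibodies nor the gates, so whether leukocytes were gated out is not known. Whether replicates are from different animals is not said, so each p measures only the spread between these libraries.

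Leukocytes share surface and cytoskeletal proteins such as the phosphatase CD45, encoded by Ptprc, and differ in the receptors of their lineages. T cells carry the CD3 complex, B cells carry CD79 and CD20, macrophages carry receptors for colony-stimulating factor and scavenger receptors, and neutrophils hold the calcium-binding S100A8 and S100A9 proteins. The mammary gland has resident macrophages along its ducts and in its stroma, and T cells lie within its epithelium. Transcription of many myeloid and lymphoid genes is known to use factors of the ETS family, such as PU.1, which bind a core of the letters GGAA.

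Of the 34 genes, 24 had a promoter in the RefSeq table of GRCm38.p6, and the 250 bases before the start given there were searched for 8 letter runs on both strands. Runs and windows were picked with the matches and values known. GAGGAA was in the window of 14 of 24 genes (58.3%), against 25.9% of 27025 genes in the table. AGGAAG was in 14 of 24 (58.3%) against 32.3%, and TTTCCT in 15 of 24 (62.5%) against 28.2%. The longer runs GAGGAAG, AGAGGAAG and GAGGAAGT, which overlap GAGGAA and AGGAAG, were in 7, 4 and 2 genes against 12%, 4.27% and 2.79% of all genes. TGACTCA was in 1 gene against 5.16%, and CACGTG in 0 against 6.86%. A match describes the letters only. The windows below belong to genes that were higher in THC than in both BC and LC, as far as the table held them, and to Cd163, which had another order of levels. The positions are chr4:130913066-130913315, plus strand for Laptm5, chr1:171234350-171234599, minus strand for Fcer1g, chr9:124101933-124102182, plus strand for Ccr2 and chr6:124304401-124304650, plus strand for Cd163. Each is written 5′ to 3′ on the gene's strand, and capitals mark every match to one of the 8 runs on either strand. By GENCODE M21, Laptm5 begins at 130913125, Ccr2 at 124101950 and Fcer1g at 171234365, each inside its window. Most of the Laptm5 and Ccr2 windows thus lies within the gene as annotated there.
Laptm5: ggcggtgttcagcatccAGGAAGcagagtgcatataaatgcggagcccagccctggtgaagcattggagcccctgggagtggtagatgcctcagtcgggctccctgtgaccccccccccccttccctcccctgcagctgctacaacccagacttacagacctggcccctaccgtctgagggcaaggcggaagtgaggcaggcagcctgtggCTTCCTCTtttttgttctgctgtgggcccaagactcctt
Fcer1g: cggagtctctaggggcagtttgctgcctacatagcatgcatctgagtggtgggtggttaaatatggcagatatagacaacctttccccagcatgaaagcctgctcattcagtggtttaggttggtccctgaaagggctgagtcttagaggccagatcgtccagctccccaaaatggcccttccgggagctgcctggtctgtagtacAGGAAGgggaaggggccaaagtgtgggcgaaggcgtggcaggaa
Ccr2: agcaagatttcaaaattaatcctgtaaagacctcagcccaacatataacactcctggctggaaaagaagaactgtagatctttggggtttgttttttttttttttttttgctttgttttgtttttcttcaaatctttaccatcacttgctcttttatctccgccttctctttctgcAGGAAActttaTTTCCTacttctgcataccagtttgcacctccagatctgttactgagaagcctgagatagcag
Cd163: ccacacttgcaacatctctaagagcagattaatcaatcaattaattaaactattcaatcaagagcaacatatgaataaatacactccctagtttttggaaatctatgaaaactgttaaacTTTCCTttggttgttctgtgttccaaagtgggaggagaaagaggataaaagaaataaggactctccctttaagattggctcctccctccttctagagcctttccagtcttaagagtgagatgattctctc
The Laptm5 window held 4 of the 8 runs, all within a pair of places, whereas Fcer1g held AGGAAG alone and Ccr2 and Cd163 held TTTCCT alone.

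Counts assigned to genes ranged from 2757773 in THC replicate 1 to 13685674 in LC replicate 2. THC replicate 1 was the shallowest library and had the highest share of reads without a unique alignment, 43.0% against 14.6% to 22.4% in the others. There, 3 counts equalled 1.16 CPM (counts scaled to the library size with TMM factors), against 0.202 CPM in THC replicate 2, and these floors cover counting error only. Defining epithelial genes followed the labels in BC, TBC and LC, whereas TLC also held basal transcripts. Krt14, a basal keratin, stood at 1721 and 1328 CPM in TBC, 1159.6 and 627 in THC, 675 and 379 in TLC, 2339 and 2212 in BC, and 34.7 and 10.6 in LC. TLC replicate 1 exceeded THC replicate 2 in Krt14. Krt8, a luminal keratin, stood at 360.5 and 241 CPM in TBC, 1003 and 648 in THC, 1415 and 1223 in TLC, 416 and 316 in BC, and 2380.4 and 1766 in LC. The sum of 6 basal markers was 13616 and 10028 CPM in TBC, 4510.4 and 3745 in THC, 1055 and 648 in TLC, 7938 and 12073 in BC, and 145 and 83.6 in LC, so the TLC mean was 7.45 times that of LC. Values are given throughout for replicates 1 and 2 of each population in that order.

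The 34 genes were a small part of every library. Together they held 484 to 2541 counts per library, which is 0.00446% to 0.0335% of the assigned counts. Their summed level was 119 and 68.3 CPM in TBC, 358 and 171 in THC, 84.8 and 85.1 in TLC, 114 and 46.5 in BC, and 67.3 and 48.4 in LC. Both THC libraries stood above the other 8, while TBC, TLC, BC and LC overlapped in part. The sum averaged 264 ± 132 CPM in THC, against 80.2 ± 47.7 in BC and 57.8 ± 13.3 in LC (SD, n = 2 each). Ratios taken within the first and within the second libraries were 3.14 and 3.68 for THC over BC, 5.32 and 3.53 for THC over LC, 2.997 and 2.51 for THC over TBC, and 4.22 and 2.01 for THC over TLC. These ratios follow record order only, as the labels pair no libraries. Taken across the numbers, the lower THC library at 171 CPM stood nearest to TBC replicate 1 at 119 and BC replicate 1 at 114. In bulk samples, fewer cells of a type and less RNA per cell cannot be told apart, and this holds for every level below.

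**Figure D1:**
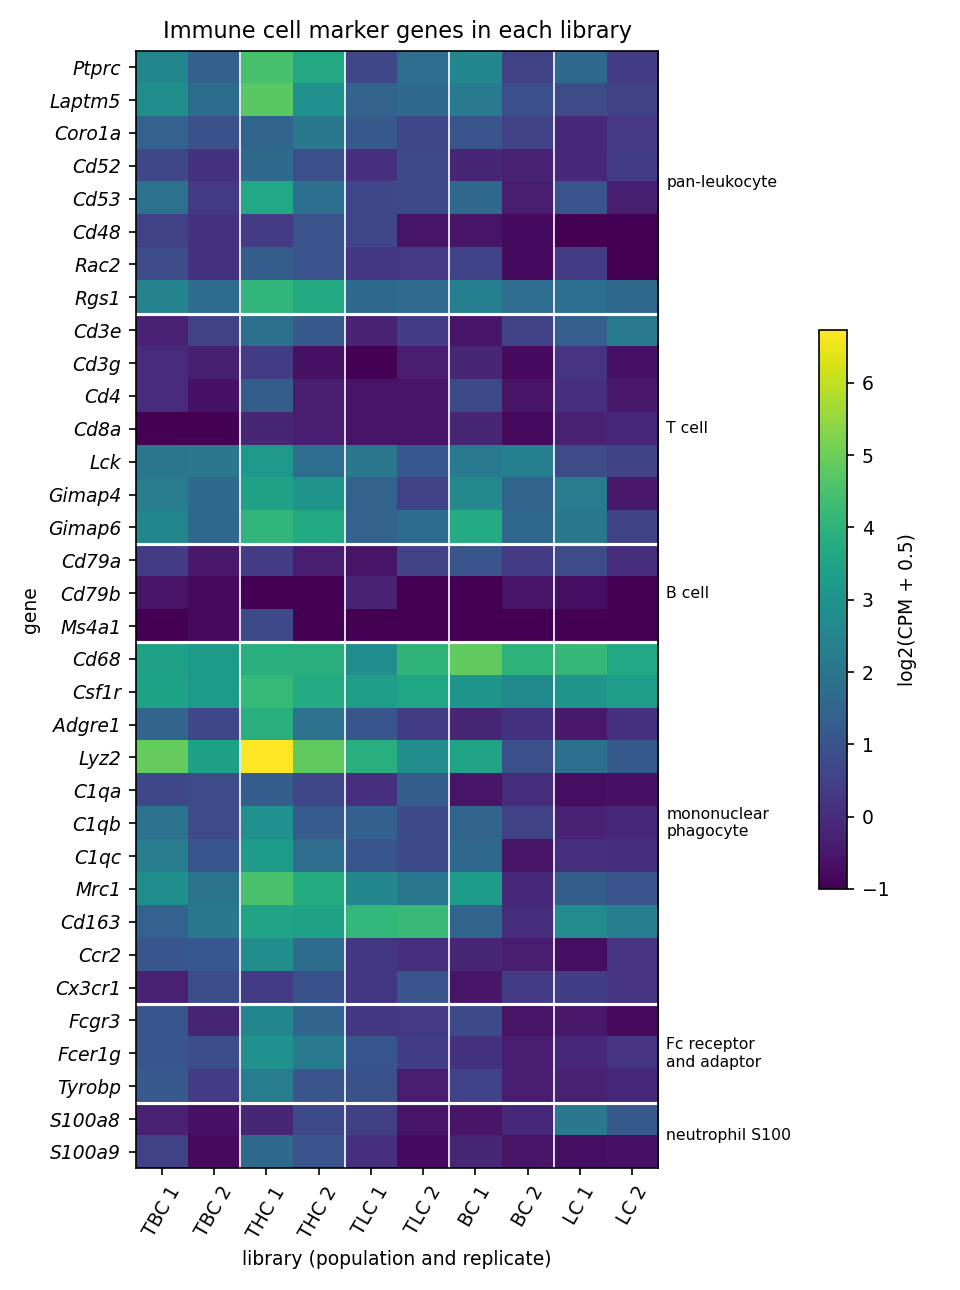
Level of each of the 34 marker genes in each of the 10 libraries, as log2 of CPM plus 0.5, with genes in rows grouped by role and libraries in columns. Brighter colours are higher levels. The THC columns are the brightest for most rows, Cd163 is brightest in TLC, and the B cell rows are dark throughout.

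Both THC libraries stood above every other library for 14 of the 34 genes, all of them among the 30 tested, against 2.66% of the 19757 genes tested. These were Ptprc, Laptm5, Coro1a, Cd52, Rac2, Rgs1, Gimap4, Csf1r, Adgre1, Mrc1, Ccr2, Fcgr3, Fcer1g and S100a9. The lower THC library was only 1.02 to 1.17 times the highest other library for Laptm5, Coro1a, Cd52, Csf1r and Rac2. For the rest of the 14 it was 1.32 to 2.61 times. In THC replicate 1, Coro1a, Cd52, Rac2 and S100a9 rested on 5 to 7 counts each. The THC mean was the highest of the 5 for 26 of the 34. By role, the pan-leukocyte sum was 25.8 and 11.7 CPM in TBC, 84.7 and 42.8 in THC, 11 and 12.6 in TLC, 19.5 and 6.87 in BC, and 9.95 and 6.16 in LC. The sum of the 11 macrophage and monocyte genes was 71.9 and 43.2 CPM in TBC, 209.9 and 92.2 in THC, 59.2 and 62.7 in TLC, 64.5 and 26.8 in BC, and 38.4 and 31.7 in LC, and that of the 3 Fc receptor genes was 4.89 and 2.49 CPM in TBC, 16.6 and 8.01 in THC, 3.68 and 1.82 in TLC, 2.74 and 0.679 in BC, and 0.973 and 1.15 in LC. In these 3 roles both THC libraries were above the rest, with THC replicate 1 at 1.98, 2.28 and 2.07 times THC replicate 2. Lyz2 alone held 106 and 28 CPM of the macrophage and monocyte sum in THC, with its replicates 3.77-fold apart. T cell genes summed to 14.5 and 10.3 CPM in TBC, 41.4 and 25.2 in THC, 8.93 and 6.81 in TLC, 25 and 10.6 in BC, and 12.9 and 7.02 in LC, again highest in THC, but BC replicate 1 nearly equalled THC replicate 2. Most of this THC sum was Gimap4, at 10.4 and 7.47 CPM, and Gimap6, at 16.6 and 12.4, which are also transcribed in endothelium. Per kilobase of exon, the highest THC mean among the 34 was that of Lyz2 at 50.7 CPM, followed by Cd68 at 11.3 and Fcer1g at 6.33, whereas in LC Cd68 led at 11.5, followed by S100a8 at 3.94. The 3 B cell genes reached at most 1.93 CPM and the 2 S100 genes at most 3.78 CPM in any library, and THC did not stand apart in either.

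**Figure D2:**
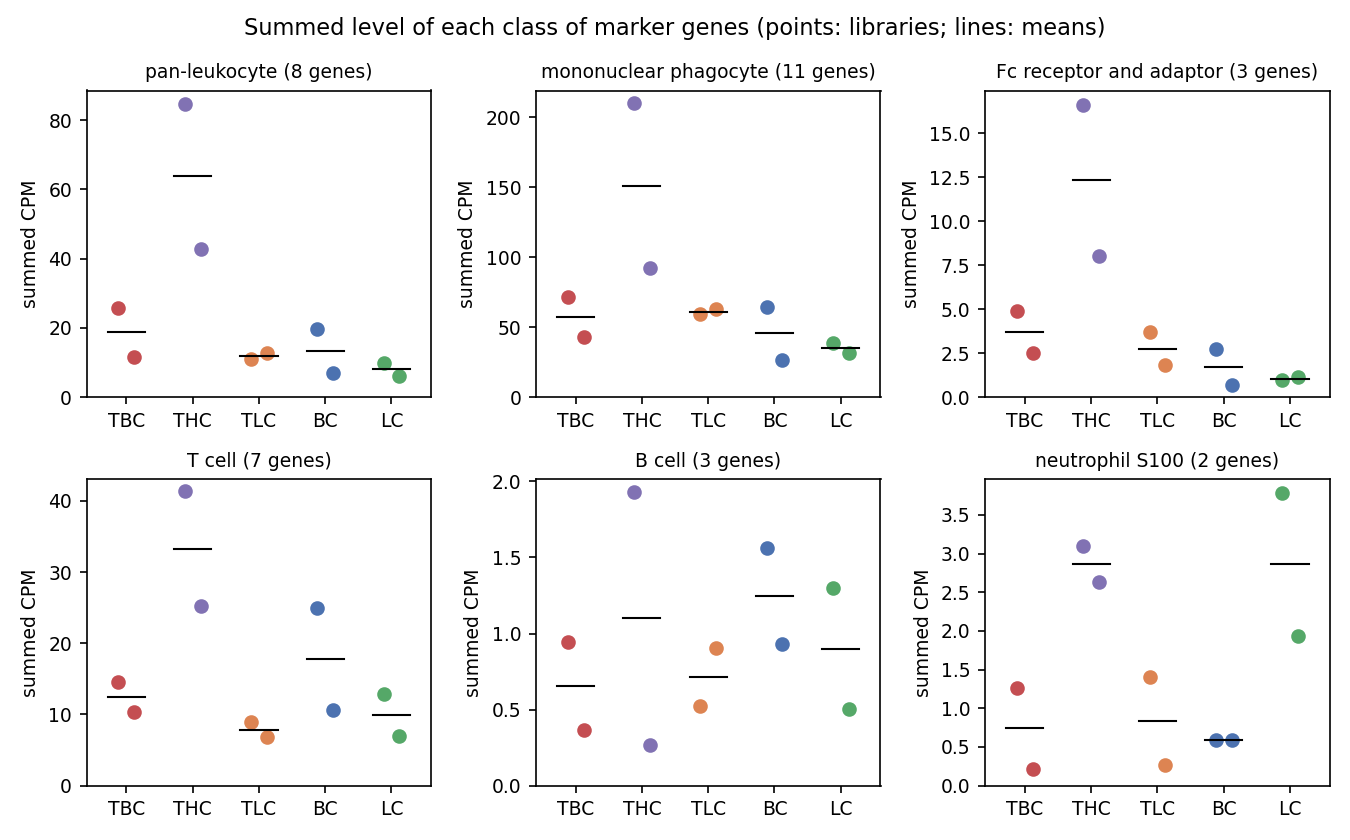
Summed CPM of the marker genes by role in each library (points) with the population mean (line), for TBC, THC, TLC, BC and LC. Both THC points lie above all others in the pan-leukocyte, macrophage and monocyte, Fc receptor and T cell panels, and not in the B cell and S100 panels.

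Among the pan-leukocyte genes, Ptprc (ENSMUSG00000026395, chr1:138062861-138175708), the CD45 phosphatase, had 5.36 and 2.12 CPM in TBC, 22 and 12.1 in THC, 1.05 and 2.9 in TLC, 5.47 and 0.934 in BC, and 2.6 and 0.788 in LC. Both THC libraries were higher than all others, and BC replicate 1 and TBC replicate 1 were the next. Its log2 fold change was 3.34 ± 0.89 (SE, adjusted p = 0.0356) for THC vs LC and 2.5 ± 0.87 (SE, adjusted p = 0.112) for THC vs BC, by the quasi-likelihood F-test of edgeR adjusted over all 19757 genes after Benjamini and Hochberg, which is behind every adjusted p here.

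Laptm5 (ENSMUSG00000028581, chr4:130913125-130936141), a lysosomal membrane protein of blood cells, had 6.78 and 2.85 CPM in TBC, 26.7 and 6.93 in THC, 2.28 and 2.63 in TLC, 3.91 and 1.36 in BC, and 1.19 and 0.931 in LC. THC replicate 2 exceeded TBC replicate 1 by little, so the groups stood apart mainly through THC replicate 1. The log2 fold change was 2.69 ± 0.73 (SE, adjusted p = 0.0484) for THC vs BC and 3.92 ± 0.77 (SE, adjusted p = 0.00762) for THC vs LC. The THC vs BC call held narrowly: it was lost in 12 of 18 alternatives, among them RLE and upper-quartile factors, limma-voom and a fit of BC and THC alone, with adjusted p from 5.86e-05 to 0.318 over the 18.

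Rgs1 (ENSMUSG00000026358, chr1:144242296-144249242), which shortens signalling of G protein-coupled receptors in lymphocytes and other leukocytes, had 5.04 and 2.85 CPM in TBC, 16.6 and 12.7 in THC, 2.63 and 2.72 in TLC, 4.5 and 2.89 in BC, and 3.03 and 2.65 in LC. The lower THC library was 2.52 times the highest of the other 8. It was the one gene of the 34 called in all 4 comparisons of THC, at 2.003 ± 0.43 (SE, adjusted p = 0.0182) for THC vs BC, 2.35 ± 0.42 (SE, adjusted p = 0.0046) for THC vs LC, 1.91 ± 0.42 (SE, adjusted p = 0.0298) for THC vs TBC and 2.43 ± 0.44 (SE, adjusted p = 0.0212) for THC vs TLC.

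Cd53 (ENSMUSG00000040747, chr3:106759921-106790149), a tetraspanin of leukocytes, had 3.15 and 0.732 CPM in TBC, 11.6 and 3.03 in THC, 1.05 and 1.18 in TLC, 2.54 and 0.255 in BC, and 1.51 and 0.287 in LC. THC replicate 2 lay below TBC replicate 1, and no comparison of Cd53 passed the test (adjusted p = 0.125 for THC vs LC). The remaining pan-leukocyte genes stayed under 5 CPM in every population mean. Coro1a, an actin-binding coronin, had 2.21 and 1.39 CPM in TBC, 2.32 and 3.77 in THC, 1.75 and 1.09 in TLC, 1.56 and 0.934 in BC, and 0.433 and 0.716 in LC, and differed for THC vs LC at 2.42 ± 0.61 (SE, adjusted p = 0.0239). Cd52, a small surface glycoprotein, and Rac2, a small GTPase of blood cells, were also highest in both THC libraries but passed in no comparison. Coro1a and Cd52 overlap exons of Bola2 and Crybg2 on the opposite strand, and because the strand setting of the counting is not given, reads of the partners cannot be told apart. Bola2 stood at 10.9 to 21.3 CPM.

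Cd48, a ligand of the CD2 family, had 24 counts over both THC libraries, 8 over TLC and 0 over LC. Against 3 counts over the LC libraries, it was at least 10.6-fold higher in THC and at least 3.70-fold higher in TLC, and the 95% counting intervals of these ratios, which also take in the counting error of THC and TLC, begin lower, at 8.01 and 2.37. The THC vs LC difference passed the test (adjusted p = 0.0177) and the TLC vs LC difference did not (adjusted p = 0.0769). Against 2 counts over BC, the ratio of THC to BC was 11.6, with a 95% counting interval of 2.89 to 101.5.

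Of the T cell genes, those of the antigen receptor complex and co-receptors were low. Cd3e, a chain of CD3, had 0.315 and 0.951 CPM in TBC, 3.09 and 1.75 in THC, 0.35 and 0.817 in TLC, 0.195 and 0.934 in BC, and 2.05 and 4.01 in LC, so LC had the highest mean and THC came second. Neither LC vs BC (adjusted p = 0.0528) nor TLC vs LC (adjusted p = 0.093) passed. Its exons overlap Gm48719 on the opposite strand, which reached at most 0.606 CPM. Cd3g stayed at or under 0.773 CPM, and Cd8a at or under 0.43 CPM with 0 counts in both TBC libraries. Cd4, the co-receptor of helper T cells, reached 1.93 CPM in THC replicate 1 and 1.17 CPM in BC replicate 1, with no comparison past the test.

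Lck (ENSMUSG00000000409, chr4:129548344-129573641), a kinase that acts below the T cell receptor, had 3.63 and 3.66 CPM in TBC, 8.12 and 2.9 in THC, 3.68 and 1.63 in TLC, 4.11 and 4.58 in BC, and 1.19 and 1.003 in LC. LC was lowest in both libraries, and TBC lay just below BC, a difference that did not pass. Lck was lower in LC than in BC at -1.99 ± 0.59 (SE, adjusted p = 0.0303) and higher in THC than in LC at 2.2 ± 0.61 (SE, adjusted p = 0.0365). The THC vs LC call was lost in 7 of 17 alternatives, among them limma-voom and a fit of LC and THC alone, and the LC vs BC call in 4 of 17. Lck thus did not follow Cd3e, which was highest in LC. The same-strand microRNA gene Mir8119 within it had at most 1 count in a library.

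Gimap4 (ENSMUSG00000054435, chr6:48684549-48692060) and Gimap6 (ENSMUSG00000047867, chr6:48701582-48708225) encode GTPases of lymphocyte survival that are also transcribed in endothelium. Gimap4 had 4.26 and 2.71 CPM in TBC, 10.4 and 7.47 in THC, 2.28 and 0.908 in TLC, 5.67 and 2.29 in BC, and 4.22 and 0.215 in LC. Gimap6 had 5.36 and 2.56 CPM in TBC, 16.6 and 12.4 in THC, 2.28 and 2.81 in TLC, 13.1 and 2.46 in BC, and 3.89 and 1.003 in LC. BC replicate 1 was above THC replicate 2 for Gimap6, and within BC and within LC replicate 1 was above replicate 2 for both genes. Neither passed in any comparison (adjusted p = 0.0646 for Gimap6 in THC vs LC). The endothelial markers themselves are described after the immune comparisons.

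B cell genes were close to the counting floor. Cd79a, a signalling chain of the B cell receptor, ranged from 0.175 to 1.56 CPM with its highest mean in BC. Cd79b, its partner, had 0 counts in both THC libraries and at most 0.35 CPM elsewhere. Ms4a1, which encodes CD20, had 0 counts in 8 of the 10 libraries and reached 1.16 CPM in THC replicate 1, where that value is 3 counts. No pairwise comparison of Cd79a passed, and the smallest adjusted p was 0.42, for THC vs BC.

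Among macrophage and monocyte genes, Adgre1 (ENSMUSG00000004730, chr17:57358691-57483527), which encodes the F4/80 antigen of mouse macrophages, had 2.36 and 1.1 CPM in TBC, 13.9 and 3.23 in THC, 1.58 and 0.817 in TLC, 0.391 and 0.594 in BC, and 0.216 and 0.573 in LC. Both THC libraries were above the rest, and TBC replicate 1 came next. Its log2 fold change was 3.91 ± 0.87 (SE, adjusted p = 0.0213) for THC vs BC and 4.22 ± 0.85 (SE, adjusted p = 0.00812) for THC vs LC.

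Lyz2 (ENSMUSG00000069516, chr10:117277331-117282321), the lysozyme of myeloid cells, had 29.2 and 9.95 CPM in TBC, 106 and 28 in THC, 13.8 and 6.35 in TLC, 10.9 and 1.36 in BC, and 3.03 and 1.79 in LC. The THC replicates differed 3.77-fold and THC replicate 2 lay below TBC replicate 1. It passed for THC vs LC at 4.78 ± 1.11 (SE, adjusted p = 0.0264) and not for THC vs BC (adjusted p = 0.0812). The THC vs LC call was lost in 8 of 18 alternatives, among them the fit with no low-count filter.

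Csf1r (ENSMUSG00000024621, chr18:61100598-61132149), the receptor of the macrophage growth factor CSF1, had 10.7 and 8.85 CPM in TBC, 17.8 and 13.1 in THC, 9.28 and 11.4 in TLC, 7.82 and 5.86 in BC, and 7.79 and 9.46 in LC. Both THC libraries were highest, but every library held at least 5.86 CPM. The THC vs BC difference of 1.17 ± 0.33 (SE, adjusted p = 0.0548) did not pass. Csf1r overlaps Hmgxb3 on the opposite strand, which stood at 36.7 to 57.2 CPM, so part of the Csf1r counts cannot be told apart from that gene.

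Cd68 (ENSMUSG00000018774, chr11:69664213-69666153), a glycoprotein of macrophage lysosomes, was spread otherwise, at 10.2 and 8.85 CPM in TBC, 14.3 and 14.1 in THC, 6.48 and 16.1 in TLC, 28.3 and 15.4 in BC, and 17.3 and 11.5 in LC. Its highest mean was in BC and THC lay within the range of TLC and LC. No comparison passed, and the THC vs BC difference was -0.61 ± 0.43 (SE, adjusted p = 0.419).

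Mrc1 (ENSMUSG00000026712, chr2:14229392-14332057), the mannose receptor, had 6.78 and 3.44 CPM in TBC, 22.4 and 13.3 in THC, 5.43 and 3.63 in TLC, 8.99 and 0.424 in BC, and 1.95 and 1.5 in LC. THC was above the rest, and BC replicate 1 was 21.2 times BC replicate 2. No comparison passed, the nearest being THC vs LC at 3.34 ± 1.003 (SE, adjusted p = 0.0594).

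Cd163 (ENSMUSG00000008845, chr6:124304656-124330527), the scavenger receptor for haemoglobin bound to haptoglobin, had an order of its own at 2.21 and 3.88 CPM in TBC, 10.8 and 10.4 in THC, 17 and 18.1 in TLC, 2.35 and 0.509 in BC, and 6.16 and 4.44 in LC. TLC was highest in both libraries, THC came next and then LC, and TBC and BC overlapped. It was higher in TLC than in TBC at 2.48 ± 0.51 (SE, adjusted p = 0.00717), higher in THC than in BC at 3.09 ± 0.59 (SE, adjusted p = 0.0113), and higher in LC than in BC at 2.09 ± 0.58 (SE, adjusted p = 0.0217). The TLC vs LC difference of 1.73 ± 0.49 (SE, adjusted p = 0.0519) missed the threshold, and it passed with DESeq2, limma-voom and a fit of LC and TLC alone.

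The C1q genes encode the 3 chains of the first complement component, which macrophages make. C1qc (ENSMUSG00000036896, chr4:136889804-136893065) had 4.26 and 1.61 CPM in TBC, 8.89 and 2.9 in THC, 1.58 and 1.18 in TLC, 2.54 and 0.17 in BC, and 0.541 and 0.501 in LC, and did not pass for THC vs LC (adjusted p = 0.0545). C1qa and C1qb passed for THC vs LC, at 3.27 ± 0.93 (SE, adjusted p = 0.0391) and 3.3 ± 0.88 (SE, adjusted p = 0.0301). The C1qa call was lost in 8 of 17 alternatives, among them DESeq2 and a fit of LC and THC alone, and the C1qb call in 4 of 17. Over the 3 genes the sums were 8.51 and 4.1 CPM in TBC, 17.8 and 5.79 in THC, 4.2 and 4.27 in TLC, 5.08 and 1.61 in BC, and 0.973 and 1.07 in LC, so the THC replicates stood 3.07-fold apart and THC replicate 2 fell below TBC replicate 1. C1qa rested on 21 counts over THC, 24 over TLC and 3 over LC, which gives a ratio of THC to LC of 9.32, with a 95% counting interval of 2.78 to 48.8.

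Ccr2, the chemokine receptor of inflammatory monocytes, had 1.58 and 1.68 CPM in TBC, 6.57 and 2.83 in THC, 0.701 and 0.545 in TLC, 0.391 and 0.255 in BC, and 0.108 and 0.645 in LC. Both THC libraries were highest and both TBC libraries next. It passed for THC vs BC at 3.8 ± 0.83 (SE, adjusted p = 0.0204) and for THC vs LC at 3.39 ± 0.75 (SE, adjusted p = 0.0131). Cx3cr1, the fractalkine receptor, ranged from 0.195 to 1.54 CPM, with overlapping libraries in all comparisons but THC vs BC, and passed in none.

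Fcer1g (ENSMUSG00000058715, chr1:171229572-171234365), the common gamma chain of Fc receptors, had 1.58 and 1.32 CPM in TBC, 6.96 and 4.11 in THC, 1.58 and 0.817 in TLC, 0.586 and 0.255 in BC, and 0.433 and 0.645 in LC. The lower THC library was 2.61 times the highest of the others, and both TBC libraries and both TLC libraries were above both of BC. Its log2 fold changes were 3.78 ± 0.69 (SE, adjusted p = 0.00989) for THC vs BC and 3.24 ± 0.63 (SE, adjusted p = 0.00651) for THC vs LC. Fcgr3, an Fc receptor for IgG, had 49 counts over THC and 3 over LC, a ratio of 21.7 with a 95% counting interval of 7.01 to 109.02, and passed for THC vs LC (adjusted p = 0.0171). Tyrobp, the DAP12 adaptor, had 1.73 and 0.805 CPM in TBC, 4.25 and 1.55 in THC, 1.4 and 0.272 in TLC, 0.977 and 0.255 in BC, and 0.324 and 0.43 in LC and passed in no comparison.

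S100a8 and S100a9 encode partners of one neutrophil protein complex but did not move together. S100a8 had 0.315 and 0.146 CPM in TBC, 0.387 and 1.14 in THC, 0.876 and 0.182 in TLC, 0.195 and 0.424 in BC, and 3.68 and 1.79 in LC, highest in both LC libraries, and passed for LC vs BC at 2.94 ± 0.85 (SE, adjusted p = 0.026). S100a9 had 0.946 and 0.0732 CPM in TBC, 2.71 and 1.48 in THC, 0.525 and 0.0908 in TLC, 0.391 and 0.17 in BC, and 0.108 and 0.143 in LC, highest in both THC libraries, and passed in no comparison (adjusted p = 0.0507 for THC vs LC). The sum of 12 other neutrophil and mast cell genes ranged from 1.19 to 8.02 CPM over the libraries, highest in BC replicate 1. Among them, Ly6g had 0 counts in all 10 libraries.

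**Figure D3:**
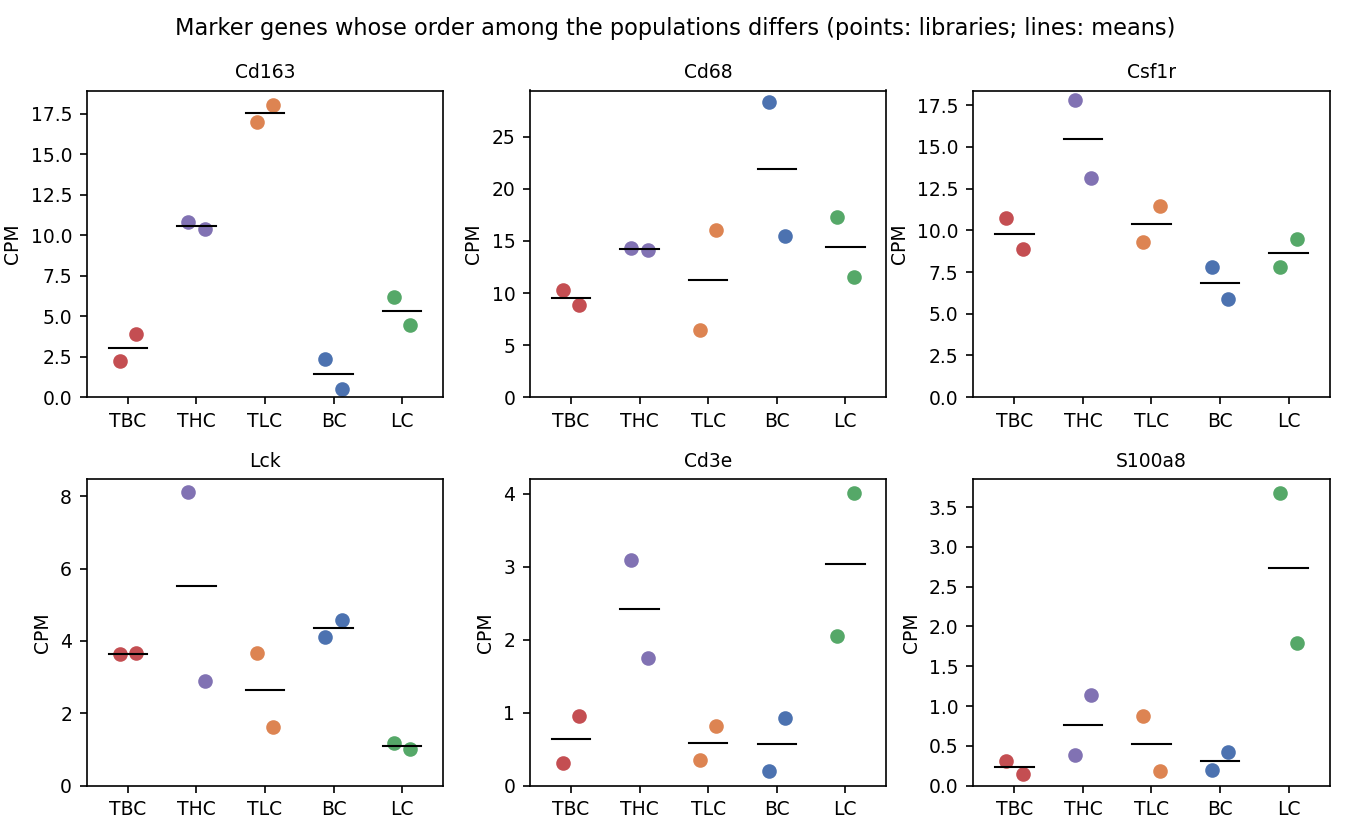
CPM of Cd163, Cd68, Csf1r, Lck, Cd3e and S100a8 in TBC, THC, TLC, BC and LC. Points are libraries and lines are population means. Csf1r followed the common order, with both THC libraries highest, and the others did not. Cd163 is highest in TLC, Cd68 in BC, S100a8 and Cd3e in LC, and Lck is lowest in LC.

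Set against the unmarked populations, part of the immune markers passed the test as higher in THC and none as lower. For THC vs LC, 13 of the 30 tested were higher, where 12.9% of the 19757 genes were called in either direction and 8.91% were higher. They were Ptprc, Laptm5, Coro1a, Cd48, Rgs1, Lck, Adgre1, Lyz2, C1qa, C1qb, Ccr2, Fcgr3 and Fcer1g. Without LC replicate 2 the count was 4 (Rgs1, Adgre1, Ccr2 and Fcer1g), and without THC replicate 1 it was 6 (Laptm5, Coro1a, Cd48, Rgs1, Adgre1 and Fcer1g). Over all genes the calls fell as well, to 1191 and 1332 in these fits against 2551 with every library. For THC vs BC, 6 of 30 were higher (Laptm5, Rgs1, Adgre1, Cd163, Ccr2 and Fcer1g), where 7.71% of all genes were called in either direction and 5% were higher. Without BC replicate 2 none of the 30 was called, and without THC replicate 1 it was 2 (Cd163 and Fcer1g). Over all genes, 280 and 545 were called in these fits against 1524 with every library, so the shares above do not apply to them. Rgs1, Adgre1 and Fcer1g kept their THC vs LC call under each alternative in which they were tested. The median log2 fold change of the 30 was 2.65 for THC vs LC and 2.01 for THC vs BC, against 0.01 over all genes tested in each.

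The summed markers of endothelial cells and of fibroblasts were also highest in THC. The 12 endothelial markers, among them Pecam1 and Cdh5, summed to 243 and 246 CPM in TBC, 792 and 798 in THC, 129 and 158 in TLC, 542 and 140.2 in BC, and 389 and 159 in LC. The 8 fibroblast markers, among them Col1a1, summed to 381 and 677 CPM in TBC, 928 and 1961 in THC, 167 and 351 in TLC, 319 and 309.9 in BC, and 320.2 and 290.2 in LC. Both THC libraries led in each sum, and all 12 endothelial and 7 of 8 fibroblast markers had positive fold changes in THC vs BC and THC vs LC. Of the 12 endothelial markers, 0 were called higher for THC vs BC and 4 for THC vs LC, and of the 8 fibroblast markers 2 and 5, where 5% and 8.91% of all genes were higher. Pecam1, the defining endothelial marker, stood at 53.4 and 49.1 CPM in TBC, 183 and 160.2 in THC, 33.8 and 31.2 in TLC, 125 and 28.3 in BC, and 84.4 and 19.9 in LC, and Col1a1, a fibroblast collagen, at 78.3 and 129.5 CPM in TBC, 244 and 718 in THC, 30.3 and 132 in TLC, 20.1 and 34.5 in BC, and 7.79 and 3.65 in LC. Their part in the immune marker levels, and that of the depth of THC replicate 1, was not tested. THC replicate 1 was 2.09 times THC replicate 2 in the immune marker sum, 0.993 times in the endothelial sum and 0.474 times in the fibroblast sum. In BC and LC, the first libraries were also the higher ones in both the immune and the endothelial sums. The sum of the 6 pericyte markers did not set THC apart, at 365 and 306 CPM in THC, 263 and 379 in TLC, and 309 and 282 in LC. It was 121 and 113 CPM in TBC and 185 and 91.1 in BC. The THC mean of this sum was highest, but TLC replicate 2 exceeded both THC libraries. Gene by gene, 4 of the 5 tested pericyte markers had positive fold changes in THC vs BC and THC vs LC, and 1 was negative. Of the 5, 1 was called higher for THC vs BC and 2 for THC vs LC, with 0 lower. For THC vs TBC 1 was higher and for THC vs TLC 2, where 2.57% and 1.52% of all genes were.

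**Figure D4:**
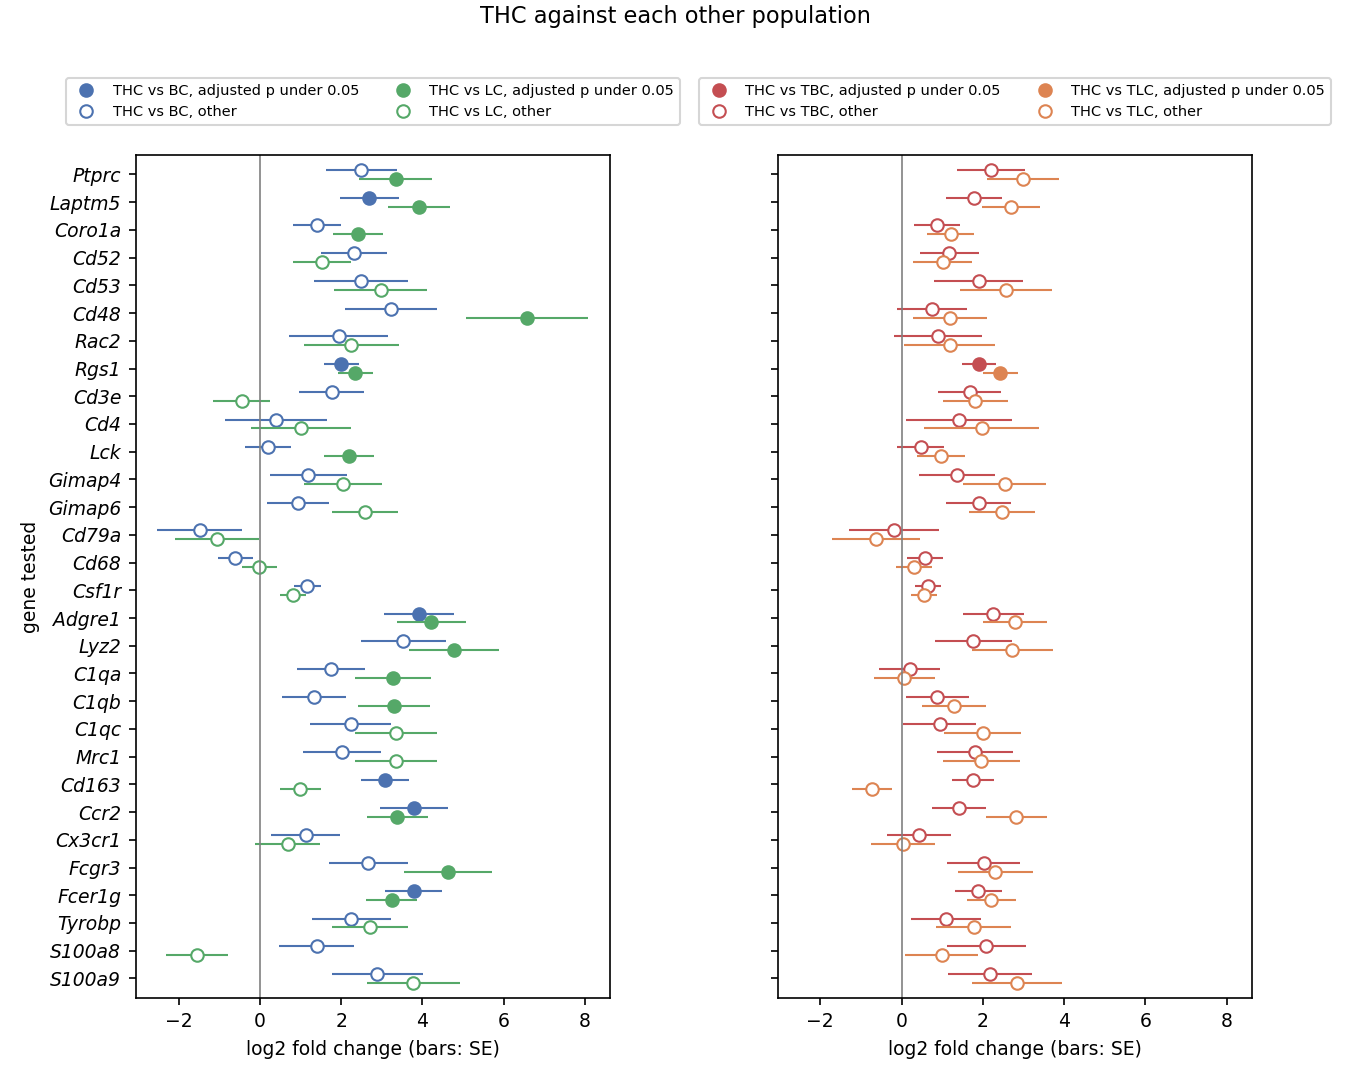
Log2 fold change of the 30 tested marker genes with its standard error (bars), for THC vs BC and THC vs LC on the left and THC vs TBC and THC vs TLC on the right, with filled points for adjusted p under 0.05. All filled points lie right of 0; the fitted value of Cd48 for THC vs LC rests on 0 counts in LC and depends on the prior count.

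Set against the marked populations, fewer differences of THC passed. Rgs1 alone passed of the 30, both for THC vs TBC, where 3.72% of all genes were called and 2.57% were higher, and for THC vs TLC, where 1.61% were called and 1.52% were higher. These calls ended when either library of the populations compared was left out, and the THC vs TBC call also without TLC replicate 2. Without BC replicate 1 or BC replicate 2, Cd163 passed as well for THC vs TBC, making 2, and without LC replicate 1 Gimap4 did for THC vs TLC, making 2. The median log2 fold change was 1.42 for THC vs TBC and 1.89 for THC vs TLC, against 0.03 and 0.02 over all genes. The 4 comparisons of THC share its libraries, so they are not independent of one another. In the test of any difference among the 5 populations, 11 of 30 passed, where 26.7% of all genes did. This count moved when a library was left out.

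Between the marked basal or luminal cells and their unmarked counterparts, none of the 30 markers passed the test in the fit of all 10 libraries, and for TLC vs LC up to 5 did under other settings. For TBC vs BC, edgeR called 0 of 30, with 4 at an unadjusted p under 0.05, a smallest adjusted p of 0.474, and 0% of all genes called. DESeq2 called 0 of 30 as well, and 207 of all genes. The median log2 fold change was 0.62, against -0.03 over all genes, and 23 of 30 were positive. For TLC vs LC, edgeR called 0 of 30, with 6 at an unadjusted p under 0.05 and 8.22% of all genes called. The median was 0.94, against 0.002 over all genes, and 23 of 30 were positive. C1qa (adjusted p = 0.0502) and Cd163 (adjusted p = 0.0519) lay just above the threshold of 0.05, and Cd163 passed without BC replicate 1 or BC replicate 2. The difference between the TLC vs LC and TBC vs BC responses was tested as an interaction. It was called for 0 of 30 by edgeR, with 0 at an unadjusted p under 0.05, and for 0 by DESeq2, where 0.911% of all genes were called by edgeR.

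Between lineages the immune markers differed in few genes. For LC vs BC, 2 of 30 were higher (Cd163 and S100a8) and 1 was lower (Lck), where 24% of all genes were called, 11.5% higher and 12.5% lower. Without BC replicate 1 Cd163 alone passed, a count of 1. Leaving out BC replicate 2 gave Gimap6 and Mrc1 in their place, leaving out LC replicate 1 gave Cd3e and Gimap4, and leaving out LC replicate 2 gave Cd163 and S100a8. For TLC vs TBC, Cd163 alone was higher, where 13.6% of all genes were called and 5.59% were higher, and it lost the call without TBC replicate 1. The medians were -0.61 for LC vs BC and -0.42 for TLC vs TBC, against -0.04 and 0.03 over all genes.

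Other leukocyte genes were read from textbook lists. Of 20 further pan-leukocyte genes, 18 were tested, with 6 higher and 0 lower for THC vs BC, where 5% of all genes were higher, and 7 higher and 1 lower for THC vs LC, where 8.91% were higher and 4% lower. Lsp1, a leukocyte actin-binding protein, had 2.68 and 2.49 CPM in TBC, 3.48 and 4.85 in THC, 1.05 and 0.908 in TLC, 0.586 and 0.594 in BC, and 0.541 and 0.143 in LC, and Itgb2, the beta chain of the leukocyte integrins, 3.63 and 1.61 CPM in TBC, 8.5 and 5.86 in THC, 2.28 and 1.63 in TLC, 1.56 and 0.594 in BC, and 0.865 and 0.501 in LC. Both were highest in the THC libraries and passed for THC vs BC and THC vs LC. Lcp1, Dock2 and Cytip, known from leukocytes, were instead higher in LC than in BC. Lcp1, an actin-bundling protein, had 13.2 and 10.3 CPM in TBC, 54.5 and 59.8 in THC, 27.8 and 31.9 in TLC, 8.99 and 8.15 in BC, and 90.9 and 109 in LC, Cytip, an adaptor of leukocyte adhesion, 5.83 and 7.17 CPM in TBC, 24.4 and 65 in THC, 67.4 and 88 in TLC, 17.6 and 11.5 in BC, and 67.8 and 75.4 in LC, and both differed for LC vs BC, at 3.55 ± 0.24 (SE, adjusted p = 4.12e-06) and 2.32 ± 0.40 (SE, adjusted p = 0.00176). The sum of the 20 genes was highest in LC, at 76.9 and 66.8 CPM in TBC, 196 and 204 in THC, 157 and 176 in TLC, 70.4 and 49.3 in BC, and 219.96 and 238 in LC, and Lcp1 and Cytip made up most of it. Without these 2, picked for their LC levels, the other 18 summed to 57.8 and 49.3 CPM in TBC, 117 and 79.1 in THC, 62.2 and 56.2 in TLC, 43.8 and 29.6 in BC, and 61.2 and 53.9 in LC, highest in both THC libraries. Of the 20 genes, 12 had their highest mean in THC, 4 in LC, 2 in TLC, 1 in TBC and 1 in BC.

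Of 17 further macrophage and dendritic cell genes, 10 were tested, with 5 higher for THC vs BC, where 5% of all genes were, and 6 for THC vs LC, where 8.91% were, and none lower. Ctss, a lysosomal protease of antigen-presenting cells, had 13.4 and 5.71 CPM in TBC, 58 and 16.2 in THC, 4.73 and 4.36 in TLC, 3.52 and 2.72 in BC, and 2.81 and 1.58 in LC, and passed for THC vs BC, THC vs LC and THC vs TLC. Cd84, an adhesion receptor of the SLAM family, passed at 3.66 ± 0.78 (SE, adjusted p = 0.0181) for THC vs BC and 4.09 ± 0.77 (SE, adjusted p = 0.00586) for THC vs LC, and Clec7a, a receptor for fungal glucans, at 2.59 ± 0.69 (SE, adjusted p = 0.0429) and 3.6 ± 0.71 (SE, adjusted p = 0.0071) for the same pair. Cd14, the lipopolysaccharide co-receptor, was highest in LC instead, at 15.8 and 20.4 CPM in TBC, 98.6 and 105 in THC, 75.1 and 82 in TLC, 73.7 and 22.8 in BC, and 338 and 179 in LC. The sum of the 17 genes also had its highest mean in LC, at 393 and 217 CPM, most of it Cd14. That sum was 107 and 80.7 in TBC, 262 and 200 in THC, 122 and 121 in TLC, and 169 and 92.7 in BC. Of 16 further T and NK cell genes 6 were tested, of 11 B and plasma cell genes 3, and of 12 neutrophil and mast cell genes 2, and none of these was called in any pairwise comparison. The sum of the 16 T and NK cell genes was highest in TLC, at 28.4 and 27.6 CPM. It was 25.9 and 19.7 in THC, 20.8 and 18.4 in TBC, 17.8 and 20.3 in BC, and 22.9 and 18.6 in LC.

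The 7 genes of MHC class II antigen presentation were all tested, with 2 higher for THC vs BC (Cd74 and H2-Aa), 4 for THC vs LC (Cd74, H2-Aa, H2-Ab1 and H2-Eb1) and 2 for THC vs TLC (Cd74 and H2-Ab1), where 5%, 8.91% and 1.52% of all genes were higher. Their sum was 75.5 and 87 CPM in TBC, 253 and 114 in THC, 52.4 and 49.6 in TLC, 79 and 67.8 in BC, and 43.1 and 41.7 in LC. H2-Aa, a class II alpha chain, had 14 and 14.2 CPM in TBC, 46 and 22.7 in THC, 11.9 and 9.8 in TLC, 14.9 and 8.4 in BC, and 4.87 and 4.15 in LC. Cd74, the invariant chain, had 41.1 and 44.7 CPM in TBC, 157 and 63.9 in THC, 30.5 and 25.7 in TLC, 43.6 and 37.5 in BC, and 23.5 and 18.3 in LC. Both THC libraries were highest for both genes, and LC was lowest.

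Of 6 genes for ligands of the receptors among the markers, 5 were tested. Of these, 4 were lower for LC vs BC (Csf1, Il34, Ccl2 and Ccl7), where 12.5% of all genes were lower, and 3 for TLC vs TBC (Csf1, Ccl2 and Ccl7), where 8.02% were lower. Csf1, the ligand of the Csf1r product, had 128 and 99 CPM in TBC, 46.4 and 52.4 in THC, 29.4 and 32.8 in TLC, 107 and 127 in BC, and 26 and 27.1 in LC, and was lower in THC than in BC at -1.24 ± 0.21 (SE, adjusted p = 0.00668) and higher in THC than in LC at 0.90 ± 0.21 (SE, adjusted p = 0.0161). Ccl2, a ligand of the Ccr2 product, had 27.4 and 19.8 CPM in TBC, 20.1 and 9.83 in THC, 1.58 and 1.36 in TLC, 35.4 and 27.8 in BC, and 2.6 and 0.143 in LC, and Ccl7, another, 4.89 and 4.54 CPM in TBC, 5.41 and 3.5 in THC, 0.876 and 0.272 in TLC, 9.97 and 6.53 in BC, and 0.649 and 0.287 in LC. Both were lowest in TLC and LC, lower in LC than in BC at -4.64 ± 0.82 (SE, adjusted p = 0.00278) and -4.16 ± 0.61 (SE, adjusted p = 0.000503), and higher in THC than in LC. Cx3cl1, the ligand of the Cx3cr1 product, ranged from 127 to 247 CPM and passed in no comparison. Csf1, Ccl2 and Ccl7 had their highest means in BC, whereas those of Ccr2 and Csf1r were in THC.

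**Figure D5:**
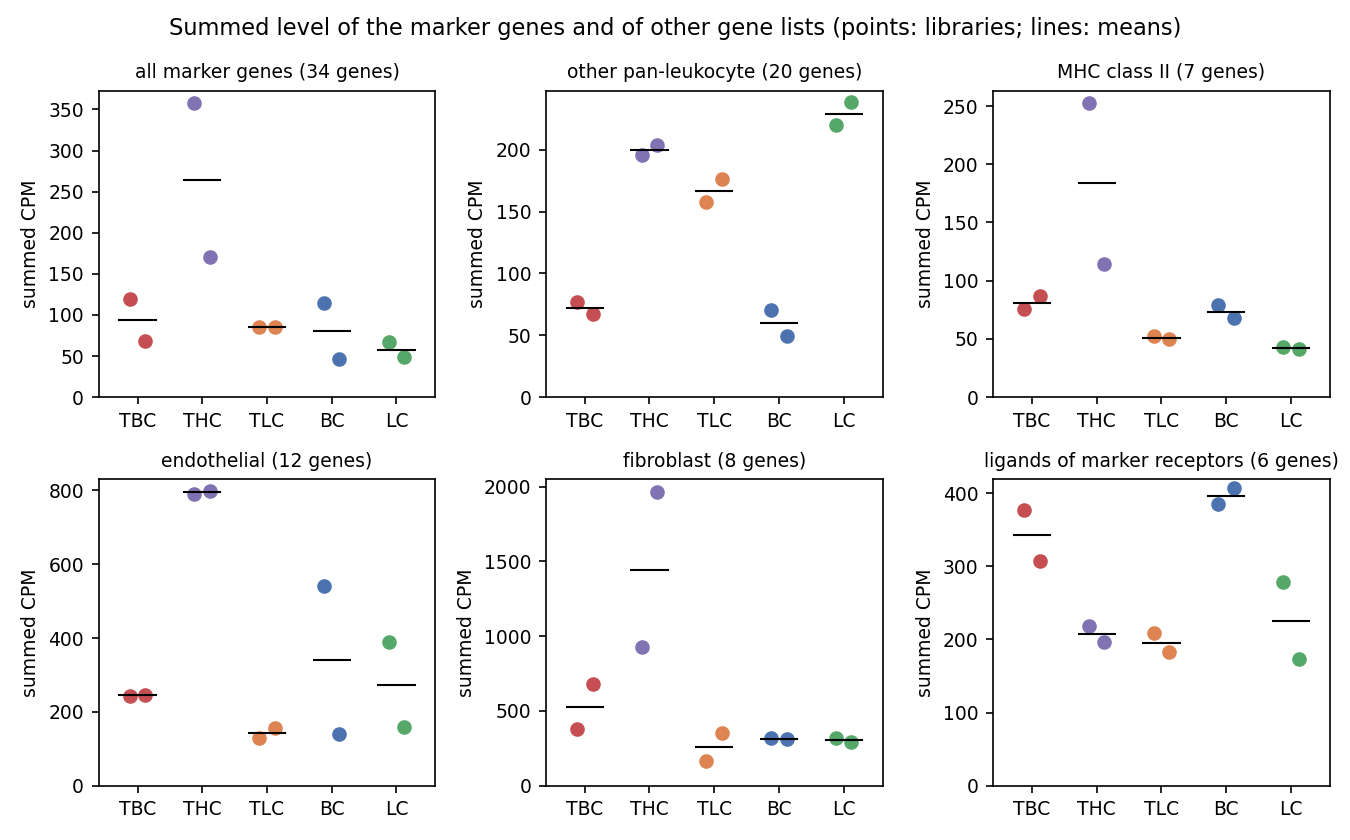
Summed CPM in each library (points) with the population mean (line) for all 34 immune markers and for the lists of other pan-leukocyte, MHC class II, endothelial, fibroblast and ligand genes. THC is highest for the immune markers, MHC class II, endothelial and fibroblast genes, LC for the other pan-leukocyte genes, where Lcp1 and Cytip hold most of the LC sum, and BC for the ligands.

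Outside the markers, the 8 genes of 13016 candidates whose log2 CPM over the 10 libraries was most like the log2 pan-leukocyte sum were Lpl, Aspn, Ctss, Rgs4, Gm49339, Plek, Dock10 and Fxyd5. Pearson's r ran from 0.955 for Lpl to 0.927 for Fxyd5, as a description over 10 libraries of unequal depth that come from 5 populations. Lpl, lipoprotein lipase, had 14.3 and 8.71 CPM in TBC, 43.3 and 41.1 in THC, 6.48 and 10.3 in TLC, 15.4 and 3.06 in BC, and 9.41 and 3.8 in LC. Aspn, a matrix proteoglycan, had 5.04 and 3.37 CPM in TBC, 13.5 and 13.3 in THC, 2.1 and 3.36 in TLC, 5.47 and 1.61 in BC, and 1.73 and 0.716 in LC. Ctss and Plek are leukocyte genes of the lists above, while Lpl and Aspn are known from other cells as well.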

How the data were processed

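Total RNA of sorted mouse mammary cells was extracted with the Qiagen RNeasy Micro kit, made into NuGen Ovation Solo libraries and run on an Illumina NovaSeq, per the labels' protocols. The authors deposited, for each library, whole-number counts of reads by gene, with Ensembl identifiers. STAR, HTSeq and the builds GRCm38 and mm10 are named in the submitters' processing notes. The sources used here give neither their versions nor the annotation release or strand setting. Summary entries for unassigned reads were left out of library sizes.

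Identifiers were matched to GENCODE M21 (GRCm38), where 49412 of 49671 were found. Promoter sequences are from RefSeq. CPM was computed here from the deposited counts with TMM factors. The test was the quasi-likelihood F-test of edgeR with robust fitting, filterByExpr and 1 coefficient per population over 10 libraries, leaving 5 residual degrees of freedom and a dispersion of 0.0715 common to all genes. Calls need an adjusted p under 0.05, and SEs are the log2 fold change over the root of F. The pipeline was tested on simulated data. Software was DESeq2 1.42.0, limma 3.58.1, edgeR 4.0.16 and R 4.3.3.

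The 34 genes, the gene lists and the tests were chosen with earlier results of these data known. Genes with a mean of at least 5 CPM in a population (15 of 34) are given in every library, listed genes up to 3 per list and comparison, and 8 genes by likeness to the pan-leukocyte sum. Igkc, Jchain and Ly6g, some markers under 5 CPM and the endothelial and fibroblast examples were named after their values were seen. Alternatives were limma-voom, DESeq2, upper-quartile and RLE factors, no filter, a filter of 5 CPM in 2 libraries, a term for the library set, only the populations compared, and each library left out. Replicates follow record order and were not treated as pairs.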

Additional observations from a re-analysis of the deposited data

Results flagged for a closer look

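Of the leukocyte genes in the lists, Lcp1 differed between marked and unmarked cells by unlike amounts in the 2 lineages. It had 27.8 and 31.9 CPM in TLC against 90.9 and 109 CPM in LC, and 13.2 and 10.3 CPM in TBC against 8.99 and 8.15 CPM in BC. The TLC vs LC log2 fold change was -1.74 and the TBC vs BC one 0.45. The difference between them, tested as an interaction with the quasi-likelihood F-test of edgeR, was -2.195 (SE 0.32, adjusted p = 0.011). Lcp1 is not among the 34 markers, and it was searched for only after the results were seen.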

How the results depend on the processing

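Counts of markers called kept within 1.5 times of the values above with upper-quartile factors. For TLC vs LC (0), RLE factors, DESeq2, limma-voom and a fit of LC and TLC alone each called 1, no filter 5 and the replicate block 4. Of all genes, these fits called 1666, 2181, 1716, 1328, 2561 and 2527 in that order, against 1625. For THC vs BC (6), no filter called 11, the filter of 5 CPM 2 and the replicate block 13. For THC vs LC (13), the filter of 5 CPM called 5 and the block 20, where 2427 and 3743 of all genes were called, against 2551. For THC vs TBC (1), DESeq2 called 2, no filter 7, the block 4 and the pair alone 3. For THC vs TLC (1), DESeq2 called 5, no filter 9, the block 5 and the pair alone 3. For LC vs BC (3), no filter called 5 and the filter of 5 CPM 1, where 5385 and 4218 of all genes were called, against 4742. For any difference (11), limma-voom called 7, no filter 20, the filter of 5 CPM 5 and the block 23. All-gene calls there were 5291, 7261, 4638 and 7052, against 5272. With no filter 34928 genes were tested and with the filter of 5 CPM 14299, against 19757. The filter of 5 CPM left 10 of the 34 to be tested. The cause of the other changes was not tested.

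Leaving out each library in turn gave 0 to 1 for TLC vs LC, 0 to 6 for THC vs BC, 4 to 16 for THC vs LC, 0 to 2 for THC vs TBC and for THC vs TLC, 0 to 1 for TLC vs TBC, 1 to 3 for LC vs BC, and 5 to 14 for any difference. TBC vs BC and the interaction stayed at 0 in every alternative run, where TBC vs BC counted 0 of all genes with edgeR, 207 with DESeq2, 398 with no filter and 33 with the block. No call of a marker turned its direction. Of 435 checks of such calls, 348 kept the call and 87 lost it.

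Counts over all genes differed by over 1.5 times under these other settings. For THC vs BC (1524), no filter called 2707 and the block 2800. For TLC vs LC (1625), no filter called 2561 and the block 2527. For THC vs TBC (734), DESeq2 called 1385, no filter 1839, the block 1510 and the pair alone 1243. For THC vs TLC (318), DESeq2 called 782, no filter 1143 and the block 683. For the interaction (180), DESeq2 called 505, limma-voom 105, no filter 725 and the block 425. Leaving out each library moved these counts further, over 0 to 148 for TBC vs BC, 494 to 1636 for TLC vs LC, 280 to 1670 for THC vs BC, 1191 to 2583 for THC vs LC (2551), 177 to 913 for THC vs TBC, 0 to 568 for THC vs TLC, 1484 to 2735 for TLC vs TBC (2689), 3131 to 4750 for LC vs BC (4742) and 45 to 268 for the interaction.

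The labels number the libraries in 2 sets and do not say whether a set shares a batch, day or animals, so the block was no part of the reported fit. Deviations from population means of same-set libraries correlated at -0.0125 to 0.421, with 8 of 10 pairs over 0.1. The 4 TLC vs LC calls with the block were Cd3e, Lyz2, C1qa and Cd163. Depth limits the low genes most, since 3 counts were 1.16 CPM in THC replicate 1.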

Other observations

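Plasma cell genes stood out in 1 library, and they were picked after their values were seen. Igkc, the kappa light chain of antibodies, reached 6.93 CPM at most in TBC, 1.55 in THC and 0.998 in TLC, against 24.4 and 0.255 CPM in BC and 363 and 4.08 CPM in LC. Jchain, which joins antibody molecules, had at most 0.473 CPM in the Tomato populations, 6.06 and 0.17 in BC, and 31.5 and 0.573 in LC. In both genes LC replicate 1 was highest and BC replicate 1 second. The B cell genes Cd79a, Cd79b and Ms4a1 did not stand out in these libraries, with sums of 1.56 CPM in BC replicate 1 and 1.3 CPM in LC replicate 1. Igkc and Jchain were not called in any pairwise comparison.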
